A study of Oryza sativa with 36 samples.

Results

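The B15 rice line was compared with itself before and after a short attack by the brown planthopper (BPH, Nilaparvata lugens), a sap-sucking insect that feeds on the phloem of the leaf sheath. B15 is a near isogenic line that carries the resistance gene BPH15 in the background of 'Wushansimiao', an indica cultivar that is its recurrent parent (RP). B15_0 is the non-infested leaf sheath, and B15_early is the leaf sheath of seedlings on which BPH had fed, with plants of several times mixed in each library (3, 6 and 12 h by the description of the groups, although the labels' list of infestation times has 60 h and no 6 h). The comparison B15_early/B15_0 rests on 6 of the 36 libraries of the series, 3 in each group, chosen by their labels alone. Every replicate was made from 15 seedlings at the four-leaf stage, infested seedlings received 8 third-instar nymphs each, and infestations began at different times so that all plants were collected together. The other libraries came from B14 (BPH14), B1415 (both genes) and RP at the same stages and from the late stage (24, 48 and 72 h), with 3 libraries in each group, and they enter only where the B15 response was set against them. The mixing of times means that a level in B15_early is an average over the times that were pooled.

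Plants answer chewing and sucking insects through jasmonate, a hormone made from membrane lipids by lipoxygenases and later enzymes and activated by conjugation to an amino acid. Jasmonate signalling is known for switching on protease inhibitors, which block digestive enzymes of the feeder, and other defence proteins, while growth-related genes are often lowered. Salicylic acid is the second main hormone of rice immunity and is known for pathogenesis-related (PR) proteins such as glucanases and chitinases. The leaf sheath is the green, still growing base of the rice leaf where BPH settles.

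Total counts per library ranged from 13060594 to 17390920 in the 6 B15 libraries, with 29082 to 29703 genes holding at least 1 count. Rank correlations between libraries were 0.9888 to 0.9929 within the B15 groups and 0.9724 to 0.9827 between them. One library of each group lay apart from the other two: B15_early replicate 1 was marginally closer to a library of B14_early (0.9906) than to its own group (0.9902), and B15_0 replicate 2 differed more from the other non-infested libraries (chi-square per degree of freedom 7.24 and 8.61) than those did from each other (2.17). Counts with and without these libraries are given with the first result. The light-harvesting gene LHCB, a marker of green tissue, had 384 to 803 CPM in every B15 library, and the seed storage glutelin Glua1 had at most 1.15 CPM. CPM here are counts per 1000000 counts of a library, scaled by the trimmed mean of M values (TMM). The share of counts on non-coding genes was 0.0918 to 0.148% in B15_0 and 0.12 to 0.24% in B15_early, ranges that overlap, and its part in the results was not tested.

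Early BPH feeding in B15 raised a small number of genes strongly and moved a much larger number slightly. Of 24165 genes tested with edgeR's quasi-likelihood test, 5771 passed a Benjamini-Hochberg adjusted p of 0.05, which is 23.9% of the genes tested, with 2772 higher (11.5%) and 2999 lower (12.4%) in B15_early. Only 736 of them (3.05% of those tested) also changed by more than 2-fold and are called differentially expressed genes (DEGs), with 472 up-regulated (1.95%) and 264 down-regulated (1.09%). The other 5035, or 87.2% of those that passed, changed by less, and the median size of a passing change was 0.53 on the log2 scale. Without B15_early replicate 1 the test passed 4878 genes, without B15_0 replicate 2 it passed 6385, and without both, a choice made after seeing the data, it passed 7604 with 813 DEGs. Leaving out B15_0 replicate 1 or replicate 3 cut the passing genes to 3624 and 3657. With no scaling beyond the total count the median of all genes moved by 0.090 (log2) and 3768 of 5814 passing genes were higher, or 64.8% in place of 48.0%, so that the balance of small rises and falls depended on the scaling.

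The up-regulated DEGs took 0.576 to 0.643% of all counts in the 3 B15_0 libraries and 1.65 to 1.79% in the 3 B15_early libraries. The down-regulated DEGs took 0.936 to 1.02% before feeding and 0.427 to 0.494% after it. These shares describe genes chosen by the same contrast. Changes beyond 4-fold were mostly rises: 83 DEGs had a log2 fold change above 2 and 13 one below -2. Of the up-regulated DEGs, 212 averaged under 5 CPM in B15_early. Across the 12 chromosomes, as read from the gene identifiers, DEGs made up 2.47% (chromosome 9) to 5% (chromosome 11) of the genes tested, with 38 up-regulated and 21 down-regulated on chromosome 11 and 41 and 11 on chromosome 12, where the share was 4%.

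**Figure D1:**
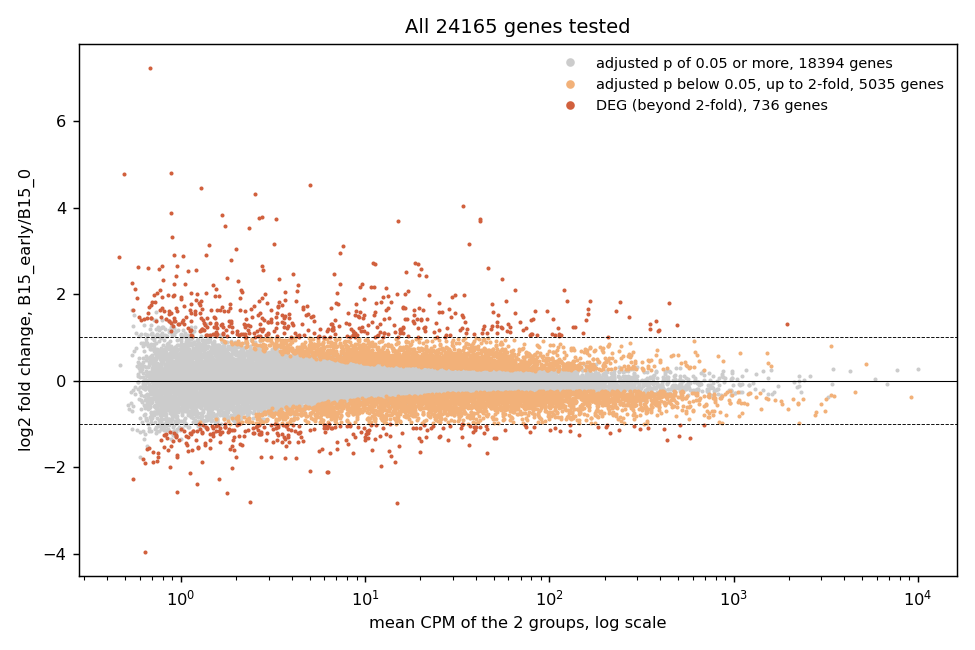
Each point is 1 of the 24165 genes tested, with the mean CPM of both B15 groups on a logarithmic x axis and the log2 fold change B15_early/B15_0 on the y axis; dashed lines mark 2-fold. The 736 DEGs lie beyond the dashed lines, and more of them lie above (472) than below (264).

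Gene names and products were taken from the annotation that accompanies the published list of DEGs, which is dense for the beginning of chromosome 1. It names 1192 of the genes tested. These genes had been picked on these samples, and 38.4% of them passed in B15_early/B15_0 (16.4% higher and 22.1% lower) against 23.9% of all genes tested, so that the counts of the gene lists are not independent evidence of their direction. The shares of 16.4% and 22.1% are those to set beside the counts of each list below. Among the genes without such an annotation, Os02g0121700 had 69.7, 67.7 and 54.1 CPM in B15_early and 3.63, 3.83 and 4.23 CPM in B15_0, and Os07g0526600 had 9.14, 11.1 and 8.83 CPM after feeding and 0.0885, 0.47 and 0.663 CPM before it. In the other direction Os07g0154100 had 4.07, 3.95 and 2.94 CPM in B15_early and 27.9, 23.4 and 26.9 CPM in B15_0, and Os04g0571600 fell from 11.1, 8.66 and 10.5 CPM to 2.3, 2.13 and 2.48 CPM. The groups did not overlap in these 4 genes, which were picked after their values were seen, and did not overlap in 39.2% of all genes tested.

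Bowman-Birk inhibitors, small cysteine-rich proteins that block trypsin-like and chymotrypsin-like digestive enzymes, were all higher among the members that the annotation names. These 6 genes, carried by identifiers that lie close together on chromosome 1, were DEGs, with a median log2 fold change of 2.70 against 0.013 over all genes tested. Members without an annotation were not looked at. Their summed level was 87.4, 74.6 and 90.0 CPM in the B15_0 libraries and 312, 390 and 390 CPM in the B15_early libraries. They form a multigene family, and how the authors' counting shared reads among them is not given in the sources used here, so that the split between members is less certain than the sum. The count of 6 held under each alternative tried.

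RBBI3-1 (Os01g0124200) had 16.4, 17.7 and 19.9 CPM before feeding and 83.3, 100 and 92.7 CPM after it, a log2 fold change of 2.36 ± 0.11 (SE, adjusted p = 1.34e-09). RBBI2-2 (Os01g0123900), the member with the most counts, rose from 54.7 ± 7.34 CPM to 195 ± 28.1 CPM (SD, n = 3 each), or 3.6-fold by the edgeR fit. Os01g0127600 had 5.22, 4.16 and 5.64 CPM in B15_0 and 30.2, 36 and 31.2 CPM in B15_early. The members with the most counts were therefore not those with the largest fold change. RBBI3-2 (Os01g0124100) was close to silent before feeding, at 0.354, 0.336 and 0.414 CPM (4, 5 and 5 counts), and reached 5.76, 4.95 and 4.84 CPM, the largest rise of the family (3.79 ± 0.31). RBBI2-1 (Os01g0124000) and RBBI3-3 (Os01g0124401) began near 3 CPM, rose by 2.71 ± 0.22 and 2.69 ± 0.17 (log2), and reached 13.2 to 24.1 and 16.4 to 21.4 CPM. B15_early replicate 1 was the lowest of the infested libraries for RBBI2-1, RBBI2-2, RBBI3-1, RBBI3-3 and Os01g0127600, and it was still above every non-infested library.

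The study measured some of these transcripts by quantitative PCR, and the primers it designed for members described here fix which transcripts are meant, since gene sequences were not used. They are given 5′ to 3′ in lower case, for a protease inhibitor and a cytochrome P450 that rose, an amino acid transporter that rose from a low level, and the light-harvesting gene that fell.
RBBI2-1 forward: gcgacatggtgaattcgtcg
RBBI2-1 reverse: acacacgcagactgatcgtt
Os10g0165300 forward: accctcgtggggaaaaatgt
Os10g0165300 reverse: aatctcgcgttggggaatgg
OsATL15 forward: gcgagctagctgcttctaca
OsATL15 reverse: tgccattattccaatctacggga
LHCB forward: ccagagcatctggtatggacc
LHCB reverse: aactctccggtcaggtacga

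A second kind of inhibitor, annotated as wound-induced protease inhibitor WIP1, behaved unevenly. IAI2 (Os01g0132000) had 230, 189 and 224 CPM in B15_0 and 460, 530 and 468 CPM in B15_early, a rise of 1.19 ± 0.10 (adjusted p = 6.36e-07) from a level that was already high. Its neighbour Os01g0131900 stayed under 1 CPM in every B15 library and did not pass (log2 fold change 0.29, adjusted p = 0.674).

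Genes listed under jasmonate and the answer to herbivory moved in both directions, with 5 of 7 rising and 2 falling (median 0.87). OsLOX11 (Os12g0559200), a lipoxygenase, doubled from 55.1, 55.5 and 56.4 CPM to 122, 113 and 115 CPM, with a spread between replicates far below the change (1.07 ± 0.08, adjusted p = 3.46e-07). OsOPR10 (Os01g0369900), annotated only as similar to an oxo-phytodienoic acid reductase, rose from 6.16 ± 0.62 to 13.5 ± 1.52 CPM. Whether it acts in jasmonate synthesis was not tested. OsJAR2 (Os01g0221100), of the GH3 enzymes that join jasmonate to isoleucine, rose by 0.63 ± 0.11, under 2-fold, from 17.7 to 20.1 CPM to 28.4 to 31.3 CPM. OsLOX11 and OsOPR10 therefore rose by about as much as IAI2 and by less than each of the 6 Bowman-Birk genes. OsJAC1 (Os12g0247700), annotated as a jasmonate-induced protein, rose more, from 0.442, 1.01 and 0.414 CPM to 5.45, 6.45 and 5.49 CPM (3.15 ± 0.30).

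NH1 (Os01g0194300), the rice counterpart of the salicylic acid regulator NPR1 of Arabidopsis, rose from 24.2, 22.5 and 21.7 CPM to 45, 42.7 and 37 CPM (0.87 ± 0.11). In the other direction, a second gene annotated as jasmonate-induced, Os12g0198700, had 4.96, 3.83 and 4.89 CPM before and 2.77, 1.94 and 1.83 CPM after feeding (-1.06 ± 0.24). It did not pass in the fit of all 36 libraries (adjusted p = 0.151). OsPROPEP3 (Os08g0173300), the precursor of a wound signal peptide, was at 2.74, 2.08 and 1.08 CPM in B15_0 and 1.54, 0.313 and 0.392 CPM in B15_early, groups that overlap. Its adjusted p of 0.0493 (log2 fold change -1.44) was lost without B15_0 replicate 1 (0.203), B15_0 replicate 2 (0.0708), B15_early replicate 2 (0.177) or B15_early replicate 3 (0.157), and with total-count scaling.

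**Figure D2:**
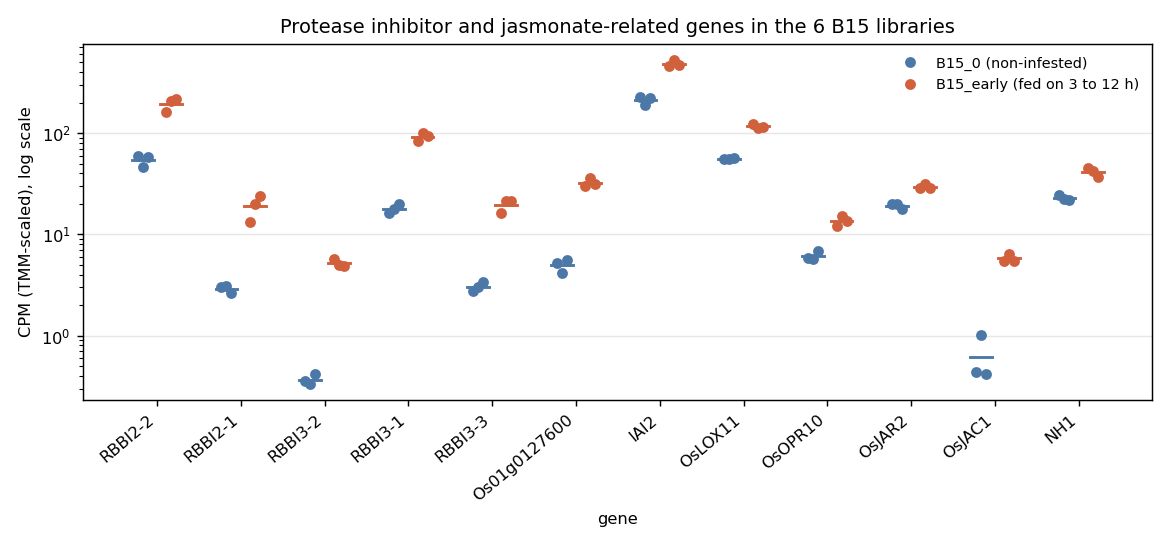
CPM of 12 genes in the 6 B15 libraries on a logarithmic y axis; each point is a library, horizontal bars are group means, blue is B15_0 and orange is B15_early. In all 12 genes the orange points lie above every blue point, with the widest gaps for RBBI3-2 and OsJAC1.

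Chitinases, glucanases and PR proteins split evenly: of 8 members tested, 3 rose, 3 fell and 2 did not pass (median -0.22), and 3 more were too low to be tested. OsPR2 (Os05g0375400), a beta-glucanase, rose from 25.2, 24.6 and 27.3 CPM to 91, 100 and 82.6 CPM (1.84 ± 0.10, adjusted p = 8.64e-09). Cht9 (Os05g0399400), a chitinase, rose from 3, 1 and 4 counts to 50, 54 and 33 counts, or from 0.221 ± 0.138 to 3.13 ± 0.87 CPM. Os01g0248300, annotated as a pathogen-related protein, rose by 1.08 ± 0.18 from 4.16, 3.96 and 5.14 CPM to 9.53, 10.3 and 7.91 CPM. By contrast 2 other glucanases, Os01g0243700 (-0.63 ± 0.11) and Os03g0117300 (-0.83 ± 0.13), and the PR1 gene OsPR1#021 (-0.73 ± 0.16) fell. The PR1 gene OsPR1#012 had 36, 24.6 and 32.9 CPM before and 26.6, 31.1 and 39.3 CPM after feeding and did not pass (adjusted p = 0.784).

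Class III peroxidases, secreted enzymes that act in lignification and oxidative defence, also went both ways, with 3 of 12 higher and 6 lower (median -0.33). POX8.1 (Os07g0677100), one of the candidate genes of the study, had 8.14, 4.16 and 4.72 CPM in B15_0 and 11.1, 12.2 and 12.4 CPM in B15_early (1.10 ± 0.20). PRX49 (Os03g0563600) rose by 1.01 ± 0.23 and prx15 (Os01g0327100) by 0.57 ± 0.09. The largest fall was that of prx14 (Os01g0327000), which went from 5.49, 4.16 and 6.8 CPM to 2, 2.63 and 2.68 CPM (-1.14 ± 0.24). The 6 lower members became 3 in the fit of all 36 libraries, and the calls of prx17 and prx40, with adjusted p values of 0.0464 and 0.0393, were each lost in 9 of the 13 alternatives tried.

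Enzymes that modify small molecules included some of the clearest rises. Of 8 cytochrome P450 genes tested, 3 rose and 2 fell, where 16.4% of all annotated genes tested were higher and 22.1% lower. Os01g0543600 had 5.13, 6.31 and 4.64 CPM before and 20, 19.4 and 17.8 CPM after feeding (1.82 ± 0.15), and the nearby Os01g0544200 had 19.3, 20.3 and 19.1 CPM before and 50.2, 48.6 and 51.1 CPM after it (1.36 ± 0.10). Both sets of libraries were tight, and neither gene's groups overlapped. Os10g0165300, a P450 named as a candidate by the study, rose by 1.01 ± 0.20, and Os01g0804400 fell from 4.78 ± 1.32 to 1.4 ± 0.315 CPM. A gene annotated with a terpenoid synthase domain, Os01g0248701, rose from 4.87, 5.84 and 7.21 CPM to 20.7, 26.5 and 23.9 CPM (2.00 ± 0.16). Terpenoid synthases make volatile and antimicrobial compounds.

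UDP-glycosyltransferases, which attach sugars to hormones and secondary metabolites, had 2 of 10 members higher and 3 lower. Of all annotated genes tested, 16.4% were higher and 22.1% lower, so that the count is no result about the family. Os01g0686200 fell from 15, 12.6 and 15.1 CPM to 5.53, 6.01 and 7.39 CPM (-1.15 ± 0.16) and UGT703A1 (Os01g0638600), a candidate of the study, from 9.21 ± 1.63 to 4.67 ± 0.457 CPM (-0.97 ± 0.18). Among glutathione transferases and glutaredoxins, redox proteins of stress responses, 3 of 10 rose and 2 fell, to be set beside the same shares. OsGRX3 (Os01g0241400) reached only 1.15, 1.32 and 0.981 CPM from 0.265, 0.201 and 0.0829 CPM, and OsGSTF1 (Os01g0371200) fell from 120, 101 and 133 CPM to 54.2, 71 and 64.9 CPM. The groups did not overlap in either gene.

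Lectins, sugar-binding proteins some of which are toxic to insects, had 3 of 5 members higher and 1 lower. The block fit and the fit of all 36 libraries kept 2 of the rises. So did the fits without B15_0 replicate 1 or 3, B15_early replicate 1 or 3, or both libraries that stood apart. The gene annotated as an agglutinin precursor, Os04g0173800, had 1, 0 and 1 counts in B15_0 and 19, 25 and 32 counts in B15_early. It was near the lower limit of what these libraries can measure before feeding. The filter on low counts could keep it only because all 3 infested libraries held it, so that its presence in each is no further result. Glua1 (Os01g0762500), the seed glutelin, had 1, 0 and 0 counts before and 15, 16 and 11 counts after feeding. It too passed the filter only through the infested libraries. The late embryogenesis abundant protein OsLEA9 (Os01g0314800), of a family known from drying seeds and stressed leaves, rose from 89, 67.5 and 91.3 CPM to 185, 211 and 183 CPM (1.23 ± 0.11).

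Some genes of perception and resistance rose. Of 8 genes with an NB-ARC domain, the nucleotide-binding part of many plant resistance proteins, 3 rose and 1 fell, and 8 more were too low to be tested. Os11g0598300 rose by 1.02 ± 0.24 to 5.88 CPM, Os11g0266500 by 0.76 ± 0.20 to 7.59 CPM and Os11g0550500 by 0.69 ± 0.18 to 7.14 CPM, and only Os11g0598300 kept its call in the fit of all 36 libraries. Of 7 receptor-like kinases tested, 3 rose and none fell, and 1 of the rises passed in the fit of all 36 libraries. Os01g0113700 rose by 1.22 ± 0.34 to 2.21 CPM, a call lost without B15_early replicate 3 (adjusted p = 0.0572) and without both libraries that stood apart (0.0516). OsRLCK5 (Os01g0114100) rose by 0.64 ± 0.15, a call lost in the fit of all 36 libraries (adjusted p = 0.0546). All 3 kinases that rose had lower means in B15_0 and in B15_early than in RP_0. OsRLCK5 averaged 6.72, 10.4 and 14 CPM in these groups. OsRLCK8 (Os01g0114600) averaged 6.23, 9.13 and 15.4 CPM, and Os01g0113700 averaged 0.947, 2.21 and 2.73 CPM. Of 5 heat shock and DnaJ genes none passed, and their log2 fold changes lay between -0.03 and 0.26. Oshsp17.9B., the one with the most counts, had 971, 664 and 1052 CPM before and 697, 923 and 998 CPM after feeding.

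Transcription factors were divided. The annotation names 5 WRKY factors, regulators of immune genes, all with identifiers on chromosome 1. Only OsWRKY102 (Os01g0182700) passed, and it fell from 6.02, 6.31 and 6.22 CPM to 2.84, 3.2 and 4.32 CPM. WRKY factors without an annotation were not looked at, so that these 5 do not stand for the family. Of 17 other factors 5 rose and 5 fell. OsbHLH148 (Os03g0741100), a factor that binds repressors of jasmonate signalling, rose from 8.23, 9.47 and 10.8 CPM to 20.9, 23.9 and 19.3 CPM (1.18 ± 0.14), and the heat shock factor OsHsfA7 (Os01g0571300) rose by 0.96. OsERF#141 (Os02g0638650), an ethylene response factor, fell the most, from 17.9, 15.2 and 16.1 CPM to 5.99, 5.7 and 4.51 CPM (-1.59 ± 0.15). The candidate NAC95 (Os06g0726300) fell from 25.5, 25.6 and 30.3 CPM to 12.8, 12.4 and 12.6 CPM (-1.10 ± 0.12). The zinc finger gene ZFP (Os03g0820400) fell by 1.23 on the log2 scale, with an adjusted p of 0.00343 in the 6 libraries and 0.0735 in the fit of all 36. OsFbx352 (Os10g0127900), an F-box protein of the kind that marks other proteins for breakdown, rose from 6.99, 5.91 and 7.04 CPM to 29.9, 27.9 and 25.1 CPM (2.07 ± 0.13).

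**Figure D3:**
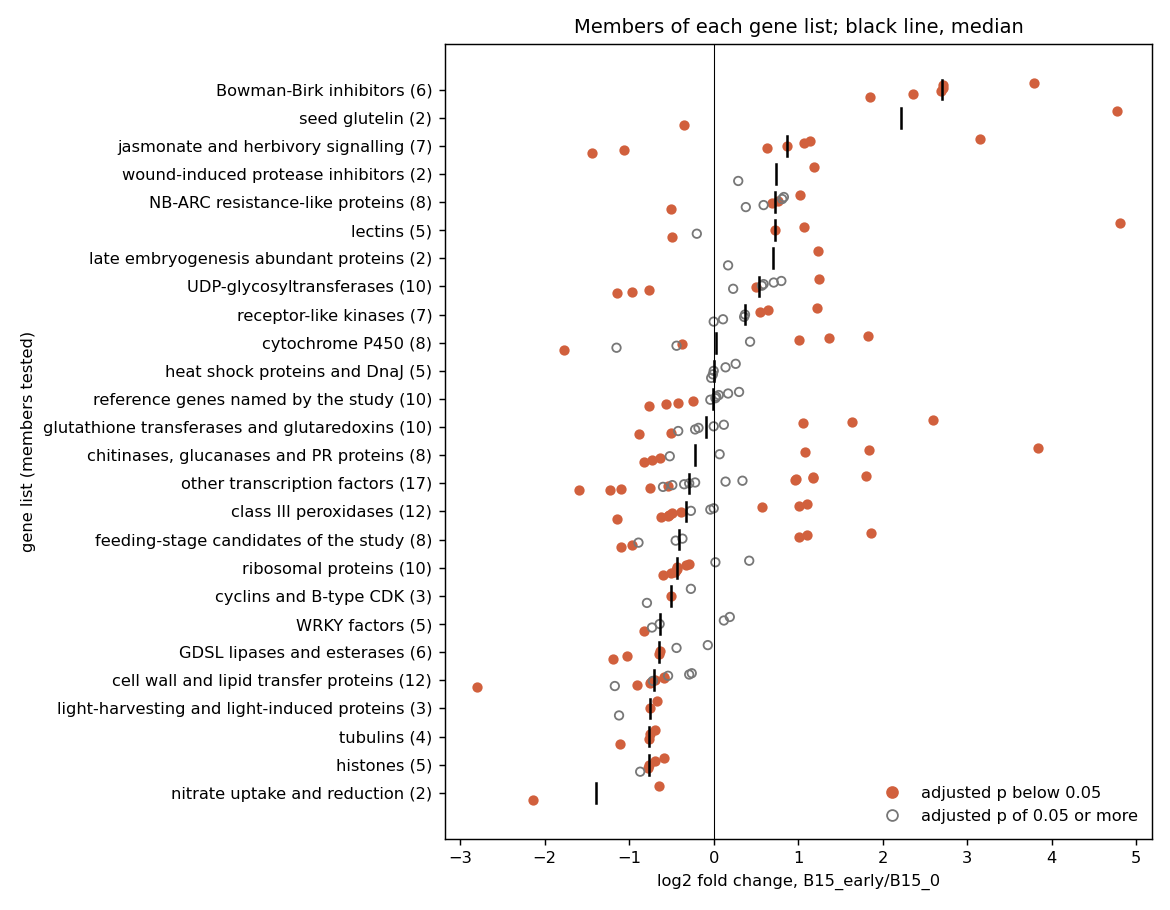
Log2 fold change B15_early/B15_0 on the x axis for every tested member of the 26 gene lists, ordered by list median (black line); filled points passed an adjusted p of 0.05 and open points did not. The Bowman-Birk list is the only one of more than 2 tested members whose members all lie above 1. The tubulin, histone, wall, GDSL, cyclin and B-type CDK, light-harvesting and nitrate lists lie wholly below 0.

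Genes of the cytoskeleton, chromatin and cell wall were lower in B15_early than in B15_0. Where they stood against non-infested RP differed between genes. The histone gene Os01g0152300 averaged 76.9 CPM in B15_0, 44.5 CPM in B15_early and 36.1 CPM in RP_0, so that it stayed above RP_0. OsFLA8 averaged 98.8, 52.4 and 84.6 CPM in these groups and OsGELP2 174, 84.9 and 130 CPM, both ending below RP_0. The lists as a whole were not tested against RP_0. The 4 tubulins of the list, subunits of microtubules, fell (median -0.76). The beta-tubulin gene Os03g0780600, which the study tried as a reference and which is not in the list, fell by only 0.25. Its call was lost in 8 of 13 alternatives. The list had a summed level of 1608, 1709 and 1672 CPM in B15_0 and 882.5, 928.1 and 968.1 CPM in B15_early. OsTUB1 (Os01g0282800) had 541, 604 and 569 CPM before and 248, 267 and 275 CPM after feeding (-1.11 ± 0.09, adjusted p = 3.24e-07). OsTUB2, TUB8 and OsTubA1 fell by 0.77, 0.75 and 0.69 on the log2 scale. In each of these 4 genes every infested library was below every non-infested one, and none of the alternatives, the change of scaling included, turned or removed a call. These were genes of high level, so that counting error was small beside the change.

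Of 5 histone genes tested, which package newly made DNA, 4 fell by 0.59 to 0.78 on the log2 scale, and the H3 gene Os06g0159725, at under 4 CPM in every library, did not pass (-0.87, adjusted p = 0.0639). The summed histone level was 318, 340 and 348 CPM before and 184, 210 and 225 CPM after feeding. CDKB2 (Os08g0512600), a kinase of the cell cycle that acts at mitosis, fell from 27, 33.2 and 30.7 CPM to 20.1, 19.5 and 23.9 CPM (-0.51 ± 0.12), a call that was lost in the fit of all 36 libraries (adjusted p = 0.158). Neither of the 2 cyclins passed, with log2 fold changes of -0.79 for OsCycB1 and -0.27 for Os05g0493400, both near 2 CPM. In a bulk sample fewer cells of a type and less RNA per cell cannot be told apart, which holds for each group of genes described here.

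Of 12 wall and lipid transfer genes 7 fell and none rose (median -0.71). OsFLA8 (Os01g0159200), a fasciclin-like surface protein, went from 102, 92.7 and 102 CPM to 48.6, 54.8 and 53.9 CPM, and OsLTP1.2 (Os01g0822900), a lipid transfer protein, from 689, 642 and 735 CPM to 381, 413 and 436 CPM. OsEXPA9 (Os01g0249100), an expansin that loosens walls during growth, had the steepest fall of the list, from 4.25, 3.36 and 4.89 CPM to 0.23, 0.564 and 0.916 CPM (-2.80 ± 0.36). Of 6 GDSL lipases and esterases, which include enzymes of surface lipids, 4 fell and none rose. OsGELP5 (Os01g0215500) fell from 58.2, 50.2 and 52.1 CPM to 24, 22.5 and 23.7 CPM (-1.19 ± 0.10), and OsGELP2 (Os01g0214600) from 172, 172 and 177 CPM to 76.4, 84.8 and 93.3 CPM (-1.03 ± 0.09). These lists moved one way in contrast to the divided lists of defence enzymes.

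**Figure D4:**
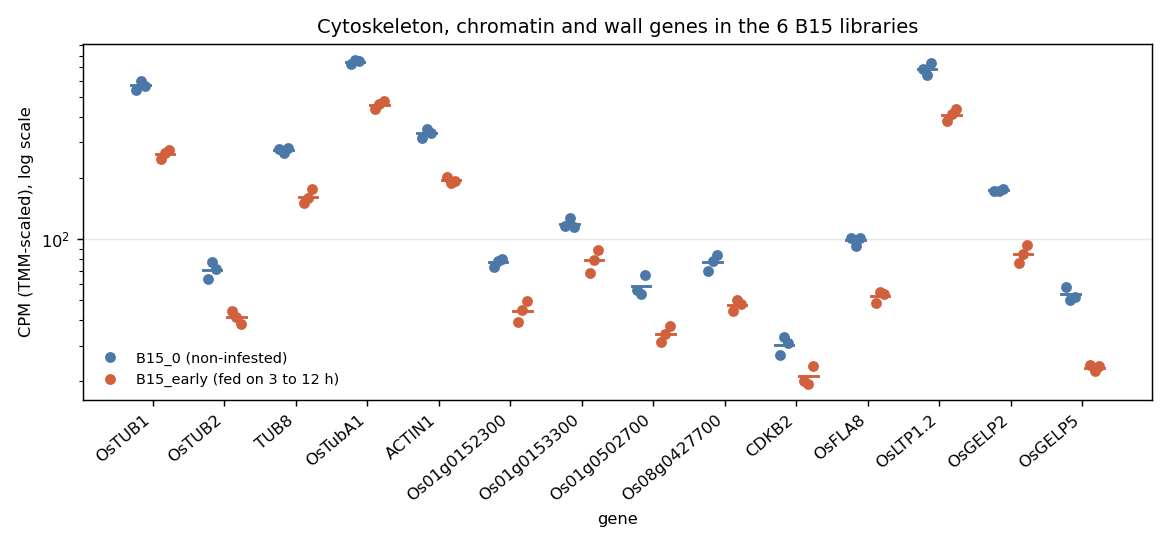
CPM of 14 cytoskeleton, chromatin and wall genes in the 6 B15 libraries on a logarithmic y axis; each point is a library, horizontal bars are group means, blue is B15_0 and orange is B15_early. Every orange point lies below every blue point of its gene, for example 248 to 275 against 541 to 604 CPM for OsTUB1.

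Of 3 light-harvesting and light-induced genes 2 fell, and both nitrate genes of the annotation fell. LHCB (Os03g0592500), which carries chlorophyll in photosystem II, had 766, 663 and 803 CPM before and 384, 485 and 523 CPM after feeding (-0.67 ± 0.11). The early light-inducible genes were less certain: the fall of Os01g0246400 (-0.75, adjusted p = 0.0413) was lost in 9 of 13 alternatives, and Os07g0178700 did not pass (adjusted p = 0.069). NiR (Os01g0357100), the nitrite reductase of nitrogen assimilation, fell from 173, 160 and 187 CPM to 109, 111 and 110 CPM (-0.65 ± 0.09). The high-affinity nitrate transporter NRT2.4 (Os01g0547600) fell from 24, 26 and 20 counts to 6, 8 and 4 counts. Among the largest falls of described genes, OsNAS3 (Os07g0689600), which makes the metal chelator nicotianamine, fell from 15, 13.8 and 14.6 CPM to 5.69, 4.76 and 6.08 CPM (-1.38 ± 0.15), and the multicopper oxidase OsLPR4 (Os01g0126900) from 5.74 ± 0.83 to 1.66 ± 0.159 CPM (-1.78 ± 0.23). Os11g0450400 (sulfotransferase domain, -1.41 ± 0.26), Os06g0652200 (hemolysin-III related, -1.38 ± 0.22) and OsPKS27 (Os11g0566800, similar to bibenzyl synthase, -1.35 ± 0.27) completed the 10 largest falls among described genes of at least 5 CPM.

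Of 10 ribosomal protein genes tested 8 fell, by 0.29 to 0.60 on the log2 scale, and none rose. The fit of all 36 libraries kept 3 of the falls and total-count scaling 6. The 10 genes that the study tried as internal references gave a scale for small changes. ACTIN1 fell from 314, 349 and 334 CPM to 201, 189 and 193 CPM (-0.77 ± 0.08), RPS27a by 0.56, GAPDH by 0.42 and beta-tubulin by 0.25 on the log2 scale. The call of beta-tubulin was lost in 8 of the 13 alternatives. The other 6 (eEF1a, SDHA, HSP, LSD1, TBP and Ubiquitin) did not pass and lay between -0.04 and 0.30, with Ubiquitin passing under total-count scaling, without B15_0 replicate 2 and without both libraries that stood apart.

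The study named 10 genes as candidates of the feeding stage, chosen on these samples. OsATL15 (Os01g0597600), an amino acid transporter, POX8.1 and Os10g0165300 rose, and NAC95 and UGT703A1 fell. OsATL15 went from 6, 8 and 6 counts to 24, 35 and 26 counts (1.86 ± 0.37). OsTLP13, OsGDI3 and LTPL163 did not pass, with log2 fold changes of -0.45, -0.37 and -0.89, and OsLEA33 and Os11g0555300, under 0.4 CPM in each B15 library, were not tested.

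The late stage gives a further point for the same genes. In B15_late RBBI3-1 averaged 242 ± 147 CPM, RBBI3-3 71.7 ± 56 CPM and OsPR2 502 ± 278 CPM (SD, n = 3), with a wide spread between libraries. Os01g0248701 was at 8.41 ± 2.5 CPM in B15_late, against 23.7 ± 2.88 CPM in B15_early and 5.97 ± 1.18 CPM in B15_0, and OsATL15 was at 0.787 ± 0.112 CPM after 1.91 ± 0.253 CPM. OsTUB1 and LHCB averaged 157 ± 28 and 226 ± 33.8 CPM in B15_late. No test of early against late was made.

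Whether early feeding changed B15 differently from the other lines was tested as an interaction of line and stage in 12 libraries, with both stages of both lines. Against RP, 1130 of 25090 genes passed (4.5%), with 343 showing a more positive change in B15 (1.37%) and 787 a more negative one (3.14%). This split depended on scaling: it was 413 against 619 with the size factors of DESeq2, 569 against 815 with DESeq2 itself and 855 against 363 with total-count scaling, which moved the median of all genes by 0.142. The number was also set by single libraries, from 367 without RP_early replicate 1 to 2431 without B15_0 replicate 2. On its own, RP changed at 10226 of 23764 genes (43% of those tested), with 1381 DEGs (5.81%).

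Among the described genes with the most negative differences, several rose in both lines and rose less in B15. OsPR2 was at 21.5 ± 1.33 CPM in RP_0 and 262 ± 47.9 CPM in RP_early, against 25.7 ± 1.38 and 91.3 ± 8.83 CPM in B15, a difference of changes of -1.82 ± 0.16 (adjusted p = 2.06e-06). OsFbx352 reached 78.4 ± 6.74 CPM in RP_early and 27.6 ± 2.4 CPM in B15_early from like levels (-1.19 ± 0.17), and DOS (Os01g0192000), a zinc finger protein that delays leaf senescence, reached 111 ± 8.42 and 68.6 ± 4.17 CPM (-0.98 ± 0.12). In these 3 genes, picked by their difference between the lines, the infested libraries of both lines did not overlap. The share of all genes for which that holds was not counted. For Os01g0266800 (cystinosin repeat, -0.76 ± 0.14) RP went from 16.5 to 72.8 CPM and B15 from 10.4 to 28.1 CPM. None of the 6 Bowman-Birk members passed, with differences of changes between -1.03 ± 0.35 for RBBI3-3 (adjusted p = 0.0945), a size like that of DOS, and 0.82 for RBBI3-2.

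For 3 further genes the level before feeding differed between the lines. OsPR1#012 was at 31.2 ± 5.92 CPM in B15_0 and 13.9 ± 0.286 CPM in RP_0 and reached 32.3 and 24.8 CPM, so that RP rose toward the level B15 already had (-0.81 ± 0.20, adjusted p = 0.0271). This call was lost in 9 of 17 alternatives. Os01g0256500 (similar to ZnI) was at 1120 ± 266 CPM in B15_0 and 332 ± 40.3 CPM in RP_0 and rose to 2764 ± 645 and 1744 ± 431 CPM (-1.13 ± 0.25), a call lost without RP_early replicate 1 (-1.02, adjusted p = 0.0527). PRX49 was at 2.66 ± 0.441 CPM in B15_0 and 0.669 ± 0.188 CPM in RP_0 and reached 5.28 and 3.7 CPM (-1.47 ± 0.37). It was chosen after its values were seen, and its difference was not followed through the alternatives. Each of the 3 thus began higher in B15.

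**Figure D5:**
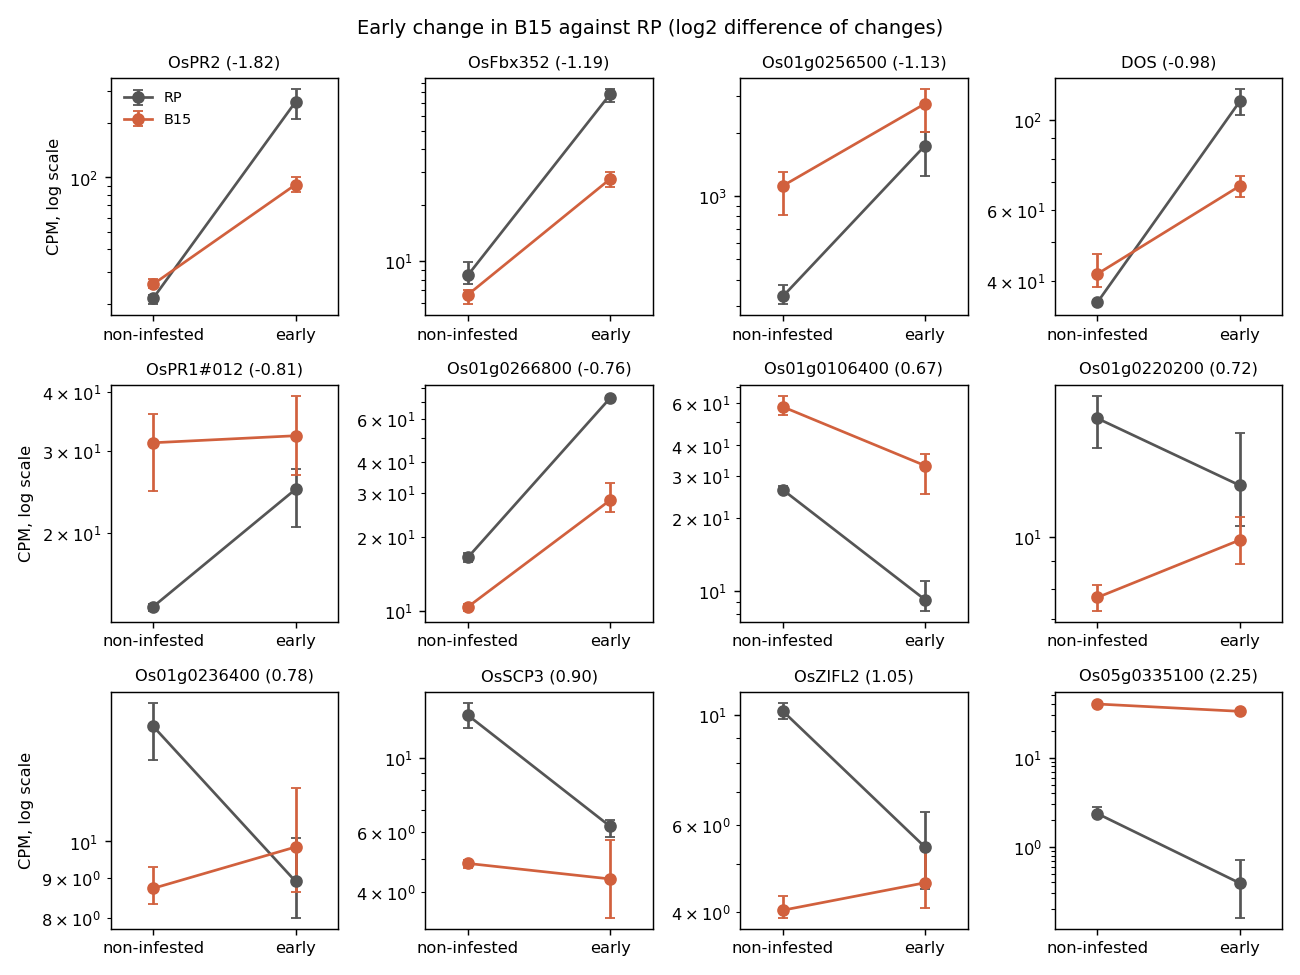
CPM on logarithmic y axes in non-infested and early-fed libraries of RP (grey) and B15 (orange) for the 12 described genes with the most negative and most positive difference of changes, which is given in brackets (log2); points are means of 3 libraries and bars run from the lowest to the highest library. OsPR2 and OsFbx352 part after feeding, while Os05g0335100 is 38.9 to 41.4 CPM in B15_0 and 2.14 to 2.8 CPM in RP_0.

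Among the 6 most positive differences, 5 were of genes with lower means after feeding in RP that did not pass in B15, and Os01g0106400 fell in B15 as well. Os05g0335100, with a saposin-like domain, was at 40.1 ± 1.29 CPM in B15_0 and 33.2 ± 1.94 CPM in B15_early but at 2.36 ± 0.378 and 0.392 ± 0.286 CPM in RP (2.25 ± 0.33, adjusted p = 0.000691). B14_0 and B1415_0 had 45 ± 1.6 and 45.3 ± 1.71 CPM, so that RP alone of the 4 lines was low. OsZIFL2 (Os01g0279400), a transporter of the major facilitator family, fell from 10.2 to 5.41 CPM in RP and was at 4.03 and 4.58 CPM in B15 (1.05 ± 0.24), a call lost without RP_early replicate 3 (0.93, adjusted p = 0.0541). OsSCP3 (a serine carboxypeptidase, 0.90), Os01g0236400 (similar to ABIL1, 0.78), Os01g0220200 (0.72) and Os01g0106400 (isoflavone reductase-like, 0.67) lost their calls in 7, 6, 10 and 8 of 17 alternatives.

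Against B1415, which carries BPH15 together with BPH14, 57 of 25104 genes passed (0.227%), and against B14 7 of 25031 (0.028%). With 1 library left out the first count ran from 26, without B1415_0 replicate 1, to 740, without B1415_0 replicate 2, and it was 30 with the replicate block. NiR fell in B15 and rose in B1415, from 67.8 ± 9.02 to 114 ± 4.02 CPM, so that both lines ended near 110 CPM (difference of changes -1.43 ± 0.12, adjusted p = 1.27e-05). Os12g0198700 fell in B15 and rose in B1415 from 0.613 ± 0.22 to 3.21 ± 0.648 CPM (-3.44 ± 0.39, adjusted p = 0.000263). Both genes thus differed between the lines mainly before feeding. Os01g0248701 rose in both, to 20.3 ± 0.842 CPM from 2.15 ± 0.13 CPM in B1415 (-1.26 ± 0.22). The comparison with B14 turned on single libraries: it gave 4470 genes without B14_0 replicate 3, which lay closest to a library of B15_0, and 0 genes with the replicate block and in 7 of the 12 fits with 1 library left out, where 845 to 1911 genes had an unadjusted p under 0.05. None of the Bowman-Birk members passed in it, with differences of changes between -0.06 ± 0.36 for Os01g0127600 and 1.67 ± 0.50 for RBBI3-2. With so few genes passing, this does not show that they changed alike in B15 and B14.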

How the data were processed

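RNA-seq of rice leaf sheaths was compared between B15_early and B15_0 (3 libraries each, labelled biological replicates). The authors deposited raw counts per gene for 36 libraries, made with HISAT2 2.0.4 on IRGSP-1.0 per the labels and counted with HTSeq per the study. The strand setting is not given in the sources used here. The labels and the study name different library kits, sequencers and time points (6 h or 60 h), which was not resolved. No genome, promoter or protein sequence of the identifiers used by the files was at hand, so that a planned search of promoters was not run, and names came from the study's annotation of its DEGs.

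edgeR 4.0.16 (R 4.3.3, limma 3.58.1) was used, with filterByExpr (minimum count 10), TMM scaling, the quasi-likelihood test and Benjamini-Hochberg adjustment over all genes tested; interactions used 12 libraries. The fit of B15_early/B15_0 and that of the interaction with RP were tested on simulated data, and the other steps were not. Printed CPM were scaled over all 36 libraries. Named genes were the 10 largest rises and 10 largest falls among described genes with adjusted p under 0.05, at least 5 CPM and groups that did not overlap, up to 3 members of each list by p (and any whose role was needed), 6 interaction genes with RP in each direction, and the study's candidates and reference genes. Genes passing against B14 or B1415, the 4 genes without annotation, OsHsfA7 and PRX49 in the RP comparison were chosen after their values were seen. Members and lists were chosen with earlier results of these data known. Alternatives were other scalings, no filter, DESeq2 1.42.0, a replicate block, unadjusted p, each library left out and a fit of all 36 libraries; total-count scaling and leaving out both libraries that stood apart were added after seeing the data.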

Additional observations from a re-analysis of the deposited data

Results flagged for a closer look

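The early change in B15 differed from that of another line, by the interaction test in edgeR, at 1130 genes against RP, 57 against B1415 and 7 against B14. Among the described genes named by rank against RP, the difference of changes (log2, B15 minus RP) was -1.82 for OsPR2, -1.19 for OsFbx352, -1.13 for Os01g0256500, -0.98 for DOS, -0.81 for OsPR1#012 and -0.76 for Os01g0266800. On the positive side it was 2.25 for Os05g0335100, 1.05 for OsZIFL2, 0.90 for OsSCP3, 0.78 for Os01g0236400, 0.72 for Os01g0220200 and 0.67 for Os01g0106400. Against B1415 it was -3.44 for Os12g0198700, -1.43 for NiR and -1.26 for Os01g0248701. Against B14 it was 4.80 for Cht9, at 0.72 ± 0.0527 CPM in B14_0 and 0.362 ± 0.116 CPM in B14_early, and 7.05 for the agglutinin gene Os04g0173800, fitted on 2 counts in all of B15_0. Both calls against B14 end with the replicate block and in 7 of the 12 fits with 1 library left out, in which no gene passed. Groups of 3 libraries are too small for a test of outlying samples.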

How the results depend on the processing

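The number of DEGs in B15_early/B15_0 (736) ranged from 659 to 819 when 1 library was left out and was 734 with DESeq2 size factors, 818 with no filter, 662 with DESeq2, 676 in the fit of all 36 libraries and 848 with unadjusted p. With no fold threshold it was 5771, a count that fell to 3707 in the fit of all 36 libraries and to between 3624 and 6385 with 1 library left out. The interaction with RP gave 1728 genes with no filter, 5292 with unadjusted p and 367 to 2431 with 1 library left out, with 680 without B15_early replicate 1 and 2000 without RP_early replicate 2. That with B1415 gave 137 with no filter, 159 with DESeq2, 3168 with unadjusted p and 26 to 740 with 1 library left out, the highest without B1415_0 replicate 2. That with B14 gave 26 with DESeq2, 1425 with unadjusted p and 0 to 4470 with 1 library left out. The causes were not tested. Whether the replicate numbers pair the libraries was not settled. Same-numbered ones deviated from their group means with correlations of -0.178, -0.201 and 0.166, which cannot decide it with 3 libraries in each group. With the replicate block the counts were 700 DEGs, 1054 genes against RP, 30 against B1415 and 0 against B14, where 1643 had an unadjusted p under 0.05. No call of a named gene changed sign, while some genes that did not pass, such as OsPR1#012 and Oshsp17.9B., lay on either side of 0. Of the settings tried on the named genes, 57 lost a call and 14 gained one in B15_early/B15_0, and 42 lost one in the interaction with RP. Genes under about 1 CPM rest on few counts, and p-values measure only the spread between these pooled-seedling libraries.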
